A study of Drosophila melanogaster with 3 samples.

Results

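The genes described here encode GAGA factor with its BTB-domain partners, the insulator proteins of Drosophila and a pair of core promoter factors. They are Trl, psq, lolal, BEAF-32, CTCF, su(Hw), Cp190, mod(mdg4), Dref and M1BP, 10 of 13945 annotated protein-coding genes. The set was selected on measured values as well as on function: it was proposed with the signals and ranks of peaks in these same lists in view, the intronic peak of Trl among them. All values for these genes are therefore a description, and no test was run on them. Peak summits were taken in the body of each gene and 10 kb to each side, called the locus below. The 10 loci cover 322.4 kb and hold 38 of the 5806 summits of the optimal peak list.

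The data are ChIP-seq, in which DNA bound by a tagged protein is immunoprecipitated and sequenced. The source is whole embryos of mixed sex aged 12 to 24 h, from 1 transgenic line in which NfI, the fly nuclear factor I, has a C-terminal GFP fusion. The 3 libraries are biological replicates 2, 3 and 4 of that single group, further replicates were not analysed here, and there is no untagged or untreated group. One label names the libraries input controls while the assay and antibody labels name a transcription factor ChIP-seq for NfI, so they were treated as immunoprecipitates; a label of age outside the collection window was not used. Whole embryos mix all cell types, and a peak does not tell in which of them NfI was bound.

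GAGA factor, the product of Trl, binds GA repeats and helps keep promoters and regulatory elements free of nucleosomes. Psq binds similar repeats, and Lolal is a small BTB-domain protein that associates with GAGA factor. BEAF-32, CTCF and Su(Hw) bind DNA at insulators, which limit contacts between enhancers and promoters and lie at many domain borders. Cp190 and Mod(mdg4) join them through protein contacts. DREF binds the DNA replication-related element, whose sequence overlaps that of BEAF-32 sites, and M1BP binds Motif 1, an element of promoters of broadly expressed genes. NFI proteins bind a palindrome of TTGGC arms and can also bind a single arm.

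Sequences under a selection of the summits are shown first, as RefSeq Release 6 (dm6) reads them on the plus strand, 5′ to 3′. Capitals mark matches on either strand to the NFI arm TTGGC, to the GAGA element GAGAG, to the core TGCATA of the Su(Hw) site or to the BEAF-32 element CGATA. A match on the minus strand stands in capitals as its reverse complement. Windows reach 100 bp to each side of the summit. The Dref and M1BP stretches were limited to the bases between the start sites of the divergent genes, which left out transcribed sequence. The intronic Trl window is the strongest of all summits in these loci, and its 2 TTGGC arms lay 17 bp apart in the same orientation, at -7 to -3 and 15 to 19 from the summit. In the mod(mdg4) intron a GAGAGAG run on the minus strand covered the summit, from -1 to 5. This intronic summit ranked 3467, while the strongest at mod(mdg4), not shown, ranked 238. The window of that strongest summit held TGCATA but no GAGAG and no TTGGC. In the su(Hw) window TGCATA covered the summit, on the minus strand from 0 to 5. The Dref stretch has CGATA at -55 to -51 and TTGGC at 2 to 6, while the Cp190 and M1BP stretches have no match to these elements. The full 201 bp window of M1BP does hold 1 TTGGC arm, at 61 to 65 from the summit, which the end of the printed stretch leaves out. The windows are Trl at 3L:14759424-14759624, mod(mdg4) at 3R:21376320-21376520, Cp190 at 3R:15275309-15275509, su(Hw) at 3R:14308854-14309054, Dref at 2L:9967230-9967312 and M1BP at 3R:8731926-8732090.
Trl intron: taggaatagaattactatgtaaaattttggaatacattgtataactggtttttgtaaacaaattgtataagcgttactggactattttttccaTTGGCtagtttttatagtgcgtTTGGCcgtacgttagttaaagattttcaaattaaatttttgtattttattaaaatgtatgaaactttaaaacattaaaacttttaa
mod(mdg4) intron: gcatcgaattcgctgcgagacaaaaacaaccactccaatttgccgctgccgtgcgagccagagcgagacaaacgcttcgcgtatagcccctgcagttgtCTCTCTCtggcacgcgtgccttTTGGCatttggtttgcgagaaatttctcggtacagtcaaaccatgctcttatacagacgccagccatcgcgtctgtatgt
Cp190 promoter: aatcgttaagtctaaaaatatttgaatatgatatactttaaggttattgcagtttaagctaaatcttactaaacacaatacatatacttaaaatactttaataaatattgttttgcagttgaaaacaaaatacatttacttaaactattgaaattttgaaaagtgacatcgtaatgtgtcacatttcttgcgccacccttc
su(Hw) promoter: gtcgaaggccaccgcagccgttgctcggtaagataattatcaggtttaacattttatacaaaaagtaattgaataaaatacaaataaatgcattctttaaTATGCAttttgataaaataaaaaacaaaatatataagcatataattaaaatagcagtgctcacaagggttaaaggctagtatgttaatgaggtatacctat
Dref promoter: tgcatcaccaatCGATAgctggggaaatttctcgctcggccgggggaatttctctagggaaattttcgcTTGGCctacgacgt
M1BP promoter: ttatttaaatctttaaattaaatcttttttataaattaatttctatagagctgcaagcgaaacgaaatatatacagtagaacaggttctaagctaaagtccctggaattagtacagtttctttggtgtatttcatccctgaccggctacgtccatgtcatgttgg

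A locus summit was present for all 10 genes, against 69.3% of all protein-coding genes. A summit within 500 bp of one of the gene's own transcription start sites (TSSs), called a promoter summit, was present for 9 of the 10, against 26.1% of protein-coding genes; mod(mdg4) was the gene without one in the optimal list. Since the set was proposed from these lists, nothing is read from either contrast. The loci held 1.18 summits per 10 kb, against 0.434 per 10 kb over the chromosome arms. Of the 38 summits, 13 lay at a promoter of the gene itself, 9 in an intron of the gene and over 500 bp from any TSS, 2 inside mod(mdg4) at start sites of other genes, and 14 in the flanks at promoters of neighbours. No flank held a summit away from a promoter. The promoter share was 76.3% (29 of 38, Clopper-Pearson 95% interval 59.8 to 88.6, counting error only), against 53.6% of all optimal summits. The loci were chosen around genes, and some adjacent optimal peaks share a replicate peak. The interval is therefore not a test, and nothing is read from this contrast either.

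**Figure D1:**
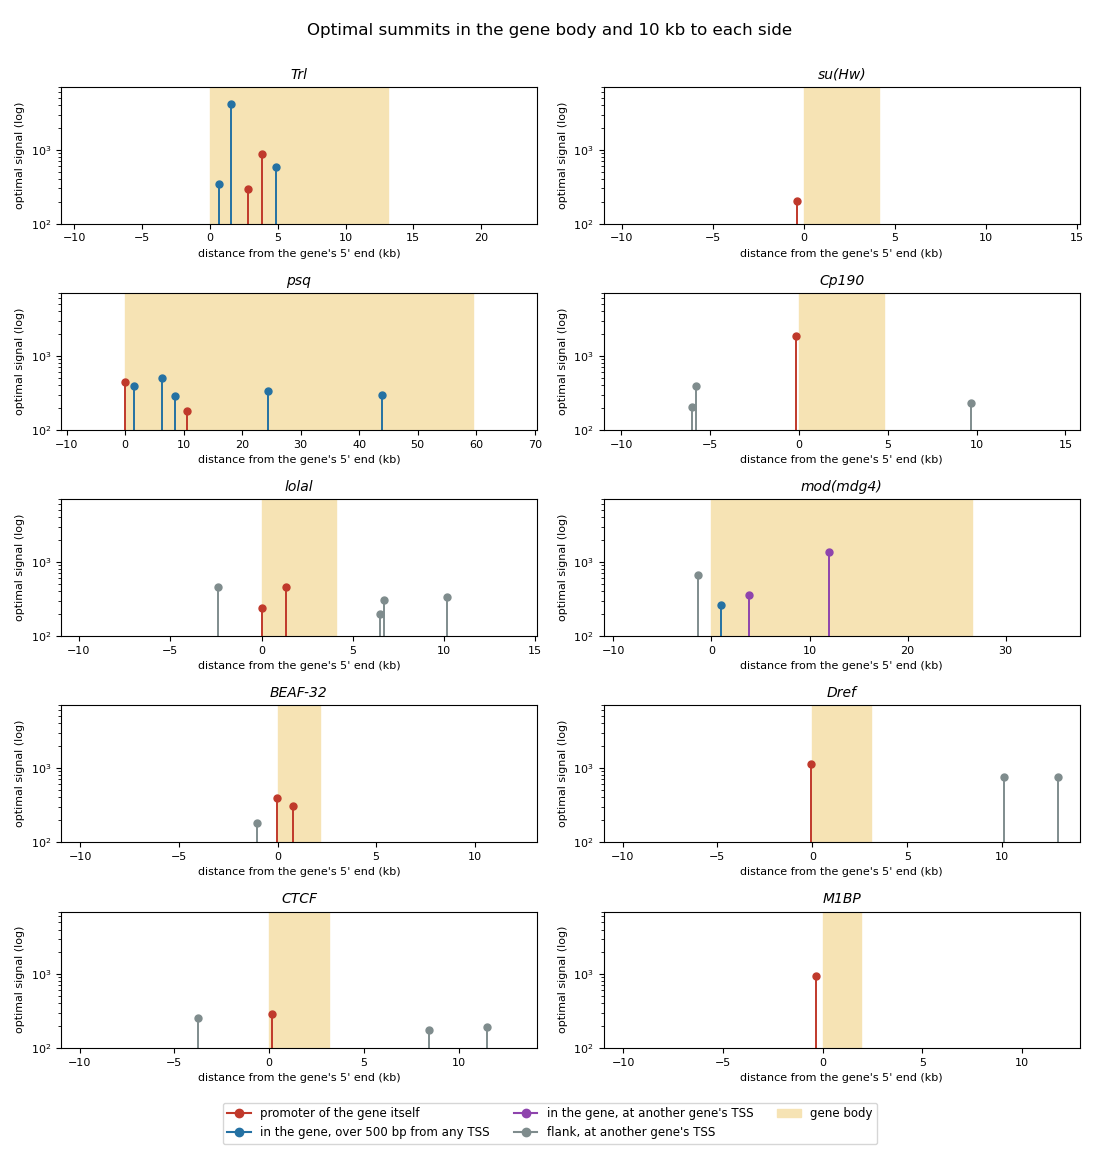
Optimal summits along the 10 loci, with distance from the gene's 5′ end in kb on the horizontal axis and the signal of the optimal list on a log vertical axis (scale not stated by the authors). Shading is the gene body and colour is the position class: Trl has 5 summits inside the gene and psq 6, and the intronic Trl summit of signal 4102 is the highest point.

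Ranks in the optimal list ran over nearly its whole length, with 12 as the best and 5790 as the last of 5806. Their median was 2466, against 2904 for the list. The median rank was 2054 for the 13 promoter summits of the genes themselves, 2437 for the 9 intronic ones and 2694 for the 16 at other genes' promoters. The strongest 2903 peaks of the list held 23 of the 38. The optimal signal is that of the pooled libraries, so the replicate lists are given beside it. There, the tallest peak that overlaps an optimal one was taken, and its signal over the median of that library's 5806 strongest peaks is called the relative signal, so that 1 is the middle of the strong peaks.

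**Figure D2:**
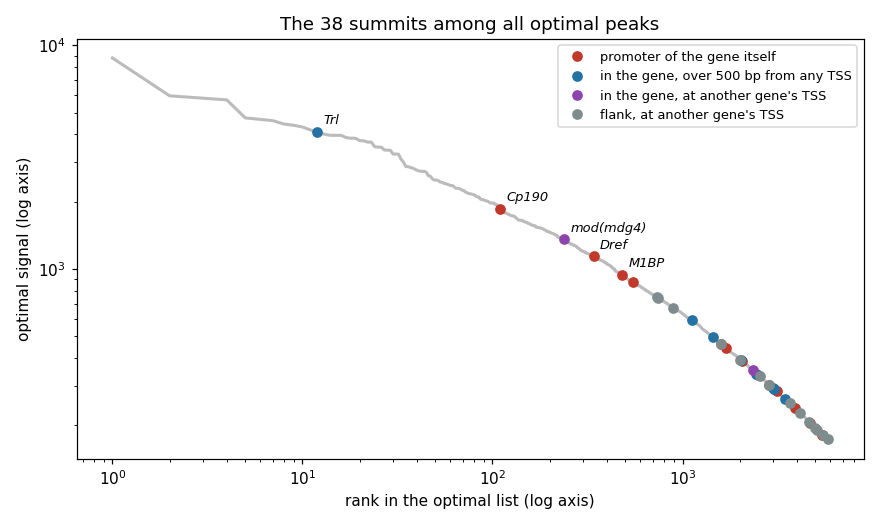
Signal against rank in the optimal list, both on log axes; the line is all 5806 peaks and the points are the 38 summits, coloured by position class. The intronic Trl summit stands at rank 12, the Cp190 promoter at 110, mod(mdg4) at 238, Dref at 340 and M1BP at 481, and the rest follow further right.

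Trl (FBgn0013263, 3L:14747929-14761049, minus strand) carried the strongest summit of the set. The peak at 3L:14759310-14759733 ranked 12 in the optimal list with a signal of 4102. It lay in an intron, 1525 bp downstream of the most upstream start site, from which 1 transcript begins, and 1562 bp upstream of the start site from which 7 of the 10 annotated transcripts begin. Its relative signal came to 15.0 in replicate 2, 11.9 in replicate 3 and 10.8 in replicate 4, a mean of 12.6 ± 2.19 (SD, n = 3), with ranks 6, 19 and 34. The 3 replicate summits fell within 12 bp of the optimal one. The peaks ranked 11 and 13, directly beside it, were promoter peaks at PNPase, which encodes polynucleotide phosphorylase (14.6 ± 4.47, n = 3), and between Tcs5 and CHMP2B (13.4 ± 2.59, n = 3). All of these SD ranges overlap. The Trl window had a GC content of 23.9%, the lowest among the 38 windows together with 1 at the Dref locus, against medians of 36.8% for all optimal promoter windows and 35.3% for the distal ones.

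The other 4 Trl summits lay in the same stretch of 4265 bp, with gaps of 885 to 1271 bp between neighbours. The promoter peak at 3L:14757069-14757352 had its summit in the 5′ UTR, 120 bp downstream of an own TSS, and ranked 549. Its relative signal came to 2.68 in replicate 2, 2.73 in replicate 3 and 3.45 in replicate 4 (2.95 ± 0.428, n = 3). A weaker promoter peak at 3L:14758063-14758442 ranked 3020 and lay 291 bp upstream of the start site shared with CG42507, a gene nested in Trl. Its relative signal was 0.831 ± 0.157 (n = 3), below 1 in each library. The intronic peak at 3L:14756051-14756346, 1192 bp from the nearest own TSS, ranked 1118 and reached 2.28 in replicate 2, 1.80 in replicate 3 and 2.02 in replicate 4 (2.03 ± 0.243, n = 3). The last intronic peak, at 3L:14760329-14760515, ranked 2437 and was the least even of them, at 0.750, 1.69 and 1.03 in replicates 2, 3 and 4. All 5 peaks overlapped a peak among the 5806 strongest of each replicate. A gene body with 5 or more optimal summits was found for 111 protein-coding genes, 0.796% of them, without adjustment for gene length.

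**Figure D3:**
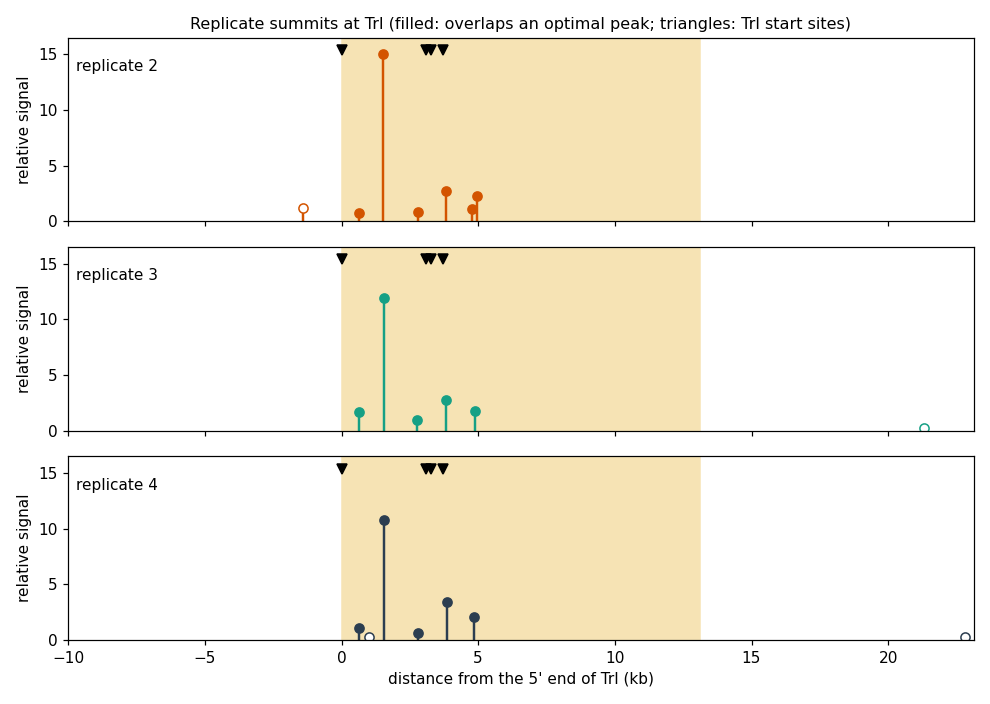
Summits of each replicate list at Trl, with distance from the 5′ end in kb on the horizontal axis and relative signal on the vertical axis; filled points overlap an optimal peak, open points do not, triangles are annotated Trl start sites and shading is the gene body. In each replicate the tallest point is the intronic summit near 1.5 kb, at 15.0, 11.9 and 10.8, and the replicate 2 list adds a point upstream of the gene at the Mgat4a promoter.

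The replicate lists added little at Trl. Among their strongest peaks, 1 in replicate 2 did not overlap an optimal peak, at the Mgat4a promoter 441 bp from its TSS, with rank 2345 and a relative signal of 1.18. Optimal summits were absent from both Trl flanks. No TTGGC arm was in the windows of the intronic peak ranked 1118 or of the promoter peak ranked 3020, and no GAGAGAG run in any of the 5. The promoter window ranked 3020 did hold GAGAG.

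The partners of GAGA factor had more moderate summits. Over psq (FBgn0263102, 2R:10557888-10617280, plus strand), a gene with 5 annotated start sites, 7 optimal summits were spread. A peak 69 bp upstream of its first start site ranked 1690, with relative signals of 1.20, 1.31 and 1.81 in replicates 2, 3 and 4. The strongest of the 5 intronic summits ranked 1448 and lay 4724 bp upstream of the nearest own TSS; it reached 1.21 in replicate 2, 1.64 in replicate 3 and 2.31 in replicate 4 (1.72 ± 0.555, n = 3). The other intronic summits ranked 2029, 2496, 2989 and 3024, with mean relative signals between 0.855 and 1.23. These are close to the middle of the strongest peaks. The weakest, ranked 5436 and 491 bp from an own TSS, was at 0.912 and 0.939 in replicates 3 and 4 but at 0.169 in replicate 2, where its rank was 25022. With 6 summits in its body, psq was among 65 protein-coding genes (0.466%) with at least that number. That share was not adjusted for gene length, and psq spans 59393 bp.

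At lolal (FBgn0022238, 2R:18154095-18158192, minus strand) a pair of own promoter summits was found. One, ranked 1593 and 42 bp from an internal start site, was at 1.16 in replicate 2, 1.32 in replicate 3 and 2.29 in replicate 4 (1.59 ± 0.613, n = 3). The other, ranked 3909, lay 28 bp from the start site that faces CG10914, at 0.845 ± 0.108 (n = 3). The 4 flank summits were at promoters of EMRE, a regulator of the mitochondrial calcium uniporter, of CG5742 and adp, and of Naus. None of the 4 had an overlapping peak in replicate 4. The Naus peak ranked 1599 in the optimal list yet was found in replicate 2 alone, at 2.21, and the adjacent CG5742 and adp peaks were assigned the same tallest peak, at 1.72 in replicate 2 and 0.576 in replicate 3. A second, weaker summit of replicate 2 lay at adp, at 0.293.

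Cp190 had the strongest promoter summit of the set. Cp190 (FBgn0000283, 3R:15270432-15275241, minus strand) encodes a BTB and zinc-finger protein that most fly insulator complexes share. The peak at 3R:15275151-15275587 ranked 110 with a signal of 1856, and its summit lay between start sites, 168 bp upstream of Cp190 and 113 bp upstream of CG4338. The relative signal came to 7.79 in replicate 2, 4.70 in replicate 3 and 3.94 in replicate 4, a mean of 5.48 ± 2.04 (SD, n = 3), with ranks 58, 208 and 345. Replicate 2 was the highest. The flanks held a peak at ATPsynO, which encodes an ATP synthase subunit, ranked 4126 and lacking in replicate 3. They also held a pair of adjacent peaks at Tm1, a tropomyosin gene, ranked 2017 and 4653. The same tallest replicate peak was assigned to both (1.17 ± 0.154, n = 3), although a second summit in the stretch reached 1.06 in replicate 2 and 0.549 in replicate 3.

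The mod(mdg4) locus (FBgn0002781, 3R:21350846-21377401, minus strand) was arranged in another way. Its 22 annotated transcripts begin at 1 start site and receive different 3′ exons by trans-splicing; many of those exons are annotated as separate pre-mod(mdg4) genes with start sites of their own. The strongest peak, at 3R:21365231-21365657, ranked 238 with a signal of 1357 and lay 11981 bp downstream of the start site of mod(mdg4). Its summit was in the 5′ UTR of pre-mod(mdg4)-E, 68 bp from that start site, and 10 pre-mod(mdg4) genes had a TSS within 500 bp. The relative signal came to 5.26 in replicate 2, 3.78 in replicate 3 and 3.48 in replicate 4 (4.17 ± 0.956, n = 3). A peak at pre-mod(mdg4)-AA ranked 2351 and was found in replicates 2 and 3, at 1.35 and 0.666. The intronic peak with the GAGAGAG run ranked 3467, lay 981 bp from the start site, and was at 0.635, 1.25 and 0.712 in replicates 2, 3 and 4. At the start site of mod(mdg4) itself, peaks too weak for the optimal list were present in every list. The pooled list had one 21 bp upstream, ranked 5911 with a signal of 170.4, just below the last of the 5806 optimal peaks. The replicate peaks there were at 0.469, 0.457 and 0.305 in replicates 2, 3 and 4, with ranks 7813, 8519 and 16956, outside the strongest 5806 of each. Upstream of the gene, a peak at tin, the cardiac homeobox gene, ranked 888 and was even across libraries (2.14 ± 0.264, n = 3).

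The promoter factors came next. Dref (FBgn0015664, 2L:9964147-9967229, minus strand) shares its promoter with RpL13, a ribosomal protein gene, and the peak between them at 2L:9967011-9967447 ranked 340. Its relative signal came to 4.12 in replicate 2, 3.14 in replicate 3 and 3.37 in replicate 4 (3.54 ± 0.514, n = 3). In the flank, a peak whose summit lay inside the overlapping genes CG4658 and CG5846, 34 bp from a CG4658 start site, ranked 737, and an intergenic one at CG4709 and CG13126 ranked 744, at 2.29 ± 0.862 and 2.43 ± 0.792 (n = 3 each). M1BP (FBgn0037621, 3R:8729790-8731698, minus strand) had a single optimal peak in its locus, at 3R:8731890-8732150, ranked 481 and 65 bp from the TSS of CG8202. It spread widely over the libraries, at 3.99 in replicate 2, 2.32 in replicate 3 and 1.39 in replicate 4 (2.57 ± 1.32, n = 3).

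The genes of the DNA-binding insulator proteins had the lowest top summits of the set by mean relative signal. BEAF-32 (FBgn0015602, 2R:14770469-14772630, plus strand) had promoter peaks ranked 2054 and 2850 at different start sites. The first was at 1.15 and 0.906 in replicates 2 and 3 and had no overlapping peak in replicate 4. The second was at 1.04 ± 0.244 (n = 3). Its replicate 3 value, 0.838, came from a summit 224 bp away, and a nearer replicate 3 summit was at 0.658. A flank peak at Spred ranked 5459. CTCF (FBgn0035769, 3L:7353578-7356713, minus strand) had a promoter peak ranked 3139, at 0.874 in replicate 2, 0.779 in replicate 3 and 1.30 in replicate 4 (0.985 ± 0.280, n = 3), and flank peaks at Cln7, at Srp19 and qm, and at Sec63 and pst, ranked 5126, 5790 and 3688. The peak at su(Hw) (FBgn0003567, 3R:14304455-14308589, minus strand) was the only optimal peak in its locus and ranked 4697. It was at 0.769 in replicate 2 and 0.468 in replicate 3, was not found in replicate 4, and lay nearer the start site of Polr2I, an RNA polymerase II subunit gene, than that of su(Hw).

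For each gene the strongest summit was the one ranked best in the optimal list, so it was fixed from the pooled signal. Ordered by the mean relative signal of that summit, the genes ran Trl, Cp190, mod(mdg4), Dref, M1BP, psq, lolal, BEAF-32, CTCF and su(Hw). The SD ranges of Trl and Cp190 did not overlap. The Trl peak was in view when the set was proposed, so nothing is read from its place at the top. The SD ranges of all other neighbours in the order did overlap. These ranges ignore that all genes were measured in the same libraries. For these same summits, the genes ran in this order within replicate 2 and within replicate 3. In replicate 4 the order held from Trl to Dref, but M1BP (1.39) lay below psq (2.31) and lolal (2.29). The order changed when the tallest matched peak of each locus was taken within a library. In replicate 2, lolal (2.213, at Naus) then lay above psq (1.315). In replicate 3, CTCF (1.144, at Sec63 and pst) then lay above BEAF-32 (0.906). For BEAF-32 and su(Hw) the mean is over 2 replicates.

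**Figure D4:**
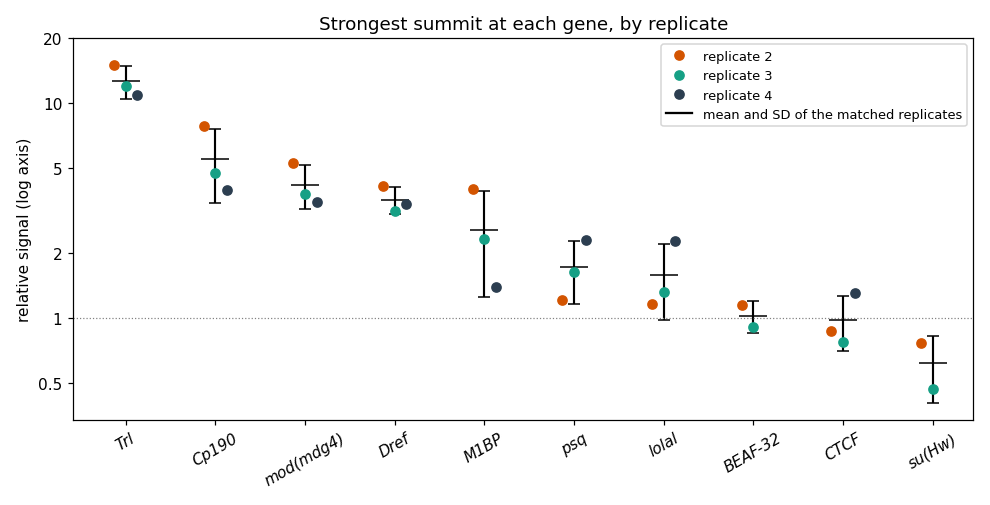
Relative signal, on a log axis, of the summit of each gene that ranked best in the optimal list. Points are replicates 2, 3 and 4, and bars are the mean and SD over the replicates that have an overlapping peak. Trl lies between 10.8 and 15.0 in all 3 replicates, above every other gene; BEAF-32 and su(Hw) have no point for replicate 4.

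Several promoter summits of the set lay at start sites of more than 1 gene. Of the 13 own promoter summits, 8 had the TSS of a second gene within 500 bp, against 1226 of 3110 optimal promoter summits in all (39.4%). The second gene was the nested CG42507 at Trl and the antisense asRNA:CR42254 at both BEAF-32 promoters. In the other 5 it was a divergent protein-coding gene, and the optimal summit lay between the start sites in 4 of them; at lolal it lay 28 bp inside the gene. The start sites were 65 bp apart for lolal and CG10914, 84 bp for Dref and RpL13, 281 bp for Cp190 and CG4338, 393 bp for M1BP and CG8202 and 500 bp for su(Hw) and Polr2I. In 4 of the 5 pairs the optimal summit was nearer the partner, lying 68 bp from Dref and 16 bp from RpL13, 168 bp from Cp190 and 113 bp from CG4338, 328 bp from M1BP and 65 bp from CG8202, and 365 bp from su(Hw) and 135 bp from Polr2I. The replicates were less even, with 8 of 14 summits nearer the partner. At M1BP and su(Hw) every replicate summit was nearer the partner, at lolal none was, and Cp190 and Dref differed between libraries.

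**Figure D5:**
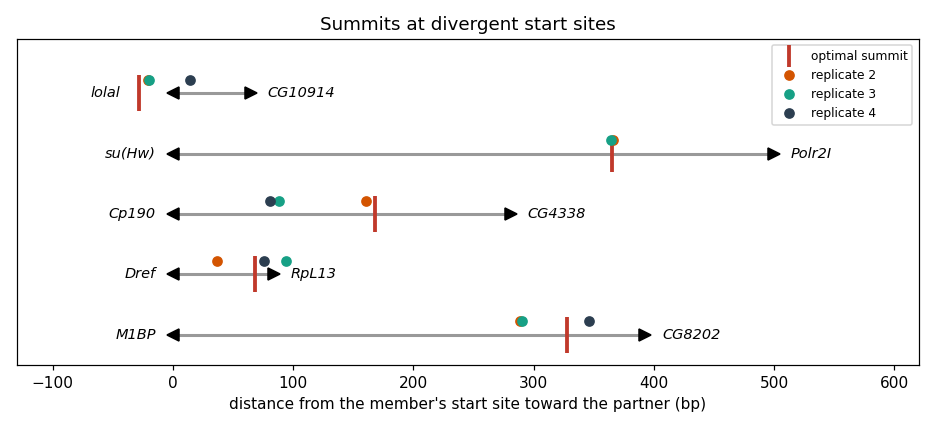
Position of the summits at the 5 divergent promoters, in bp from the gene's start site toward the partner's; left-pointing triangles are the start sites of the named gene and right-pointing ones those of the partner, red ticks are optimal summits and points are replicate summits. At M1BP and su(Hw) all summits lie toward the partner, while at Cp190 replicates 3 and 4 lie 88 and 81 bp from the Cp190 start site.

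The replicates held most of the optimal summits. An overlapping peak anywhere in the 30000-peak lists of all 3 replicates was found for 29 of the 38 summits, in 2 replicates for 8 and in 1 for 1. Among the 5806 strongest peaks of each list, 27 had one in all 3 replicates, 71.1% against 55.3% of all optimal peaks. By position these were 9 of 9 intronic summits, 10 of 13 own promoter summits and 8 of 16 summits at other genes' promoters, beside 52.6% of all optimal distal peaks and 57.6% of all optimal promoter peaks. The differences between positions were not tested. Adjacent optimal peaks at Tm1, and those at CG5742 and adp, were counted separately although each pair was assigned the same tallest replicate peak. The 8 summits lacking in replicate 4 were 2 own promoter summits and 6 at other genes' promoters, 4 of these at the lolal locus, and none was intronic. Replicate 4 also had the fewest peaks at or below a q-value of 0.01, with 5138, against 8464 for replicate 3 and 13037 for replicate 2. The 5806 strongest of replicate 4 therefore include peaks that miss that q-value. The part of its low count in the gaps was not tested.

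The replicate lists were also read on their own. Among the 5806 strongest peaks, the loci held 43 summits in replicate 2, 34 in replicate 3 and 30 in replicate 4, of which 31, 23 and 21 lay within 500 bp of a TSS and 12, 11 and 9 did not. Of these, 38, 32 and 28 overlapped an optimal peak. An own promoter summit among the strongest was present for 9 genes in replicate 2, against 29.2% of protein-coding genes. In replicate 3 it was present for 8 genes, against 21.6%, and in replicate 4 for 8, against 22.5%. The strongest summits without an optimal peak included 1 at an own start site of psq in replicate 2, ranked 5206, and 1 at lolal in replicate 3, ranked 5199. At CTCF, the pst promoter had such a summit in replicates 2 and 4, ranked 3677 and 4947.

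Elements bound by the proteins that these genes encode were sought in windows of 201 bp on both strands, and each was in a minority of the 38 windows. GAGAG was found in 6 of 38 windows (15.8%), against 22.3% of all optimal windows, and the longer GAGAGAG, which contains it, in 2 (5.26%), against 3.74%. TATCGATA, the element of DREF and BEAF-32, was in 2 windows, both at the CTCF locus (5.26% against 4.63%), and its shorter part CGATA in 9 (23.7% against 31.0%), all 9 at promoters. GGTCACACT, Motif 1, was in 1 window, at Spred beside BEAF-32 (2.63% against 2.34%). AGNNGGCGC, the core of the CTCF site, was in 1, at the promoter of CTCF itself (2.63% against 3.67%). TGCATA, the core of the Su(Hw) site, was in 8 (21.1% against 14.8%). TTGGC was in 19 windows (50% against 35.6%), 14 of 29 at promoters and 5 of 9 in introns, while the NFI palindrome of 2 arms spaced by 5 bases was in none of them and in 4 of all 5806. A match is a sequence description and does not show which protein was bound. Window GC had a median of 36.3% at promoters and 31.8% in introns of the set, against 36.8% and 35.3% for all optimal promoter and distal windows.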

How the data were processed

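NfI-GFP ChIP-seq peaks of 3 replicate lists, a pooled list and an optimal list were analysed, all in narrowPeak format on dm6 per the deposited listings. Each replicate list came from 1 alignment and a control alignment that all 3 shared, the pooled list from all 3 alignments, and the optimal list from these lists by the irreproducible discovery rate, per the deposited listings. For aligner, peak caller, versions and threshold, nothing is given in the sources used here. Each peak's signal is the authors' deposited value; its scale is not stated, so it was compared within a list. The significance of a peak is the deposited −log10 q-value of the authors. Chromatin was sonicated to a size range of 200 to 800, without a unit, per the labels. The files give no read counts, so depth is unknown, and the interval covers only the counting of peaks.

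Each replicate and pooled list holds 30000 peaks. Genes and TSSs were taken from Ensembl release 115 (BDGP6 version 6.54) and sequence from the RefSeq Release 6 genome, both with dm6 coordinates; no peak ended beyond its arm. Transposable elements annotated as genes and the Y chromosome were left out. The replicate summit of an optimal peak is that of the strongest overlapping replicate peak, with an overlap of 1 bp. The genes named are the 10 members, other genes with a TSS within 500 bp of an optimal summit in a locus, the neighbours in rank of the Trl peak, and per related list the 2 genes with the strongest own promoter summit; genes named at replicate summits without an optimal peak were chosen after their values were seen. Members, lists and motifs were chosen with earlier results of these data known. With members so chosen, no test was run. Annotation and motif counting were tested on simulated data. Python 3.11.15, numpy 2.4.6, pandas 2.3.3, scipy 1.17.1 and matplotlib 3.10.9 were used.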

Additional observations from a re-analysis of the deposited data

How the results depend on the processing

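Of 128 alternative values, 96 stayed within the spread or within 1.5 times the reported count, and 32 moved. With the gene body alone, 6 of the 10 genes had an optimal summit and the loci held 18 summits, against 58 with flanks of 20 kb and 23 in the strongest 2903 peaks. The share of all protein-coding genes is not given for the gene body or for lists lacking a replicate. Nothing is therefore read from the gene counts at those settings. The full replicate lists placed 140, 94 and 85 summits of replicates 2, 3 and 4 in the loci, and a q-value of 0.01 or lower left 75 in replicate 2. Motif counts moved with the window: at 50 bp to each side GAGAGAG and TATCGATA were in 1 window each, TGCATA in 4 and TTGGC in 11. At 200 bp to each side GAGAG was in 13, GAGAGAG in 6, TATCGATA in 5, CGATA in 19, GGTCACACT in 2 and AGNNGGCGC in 4. Shares of all optimal windows are not given at these lengths, so nothing is read from the motif counts there. Without each replicate in turn, which kept optimal peaks found among the strongest of both others, 9 genes had a locus summit and 8 an own promoter summit each time. The loci then held 27 to 30 summits with promoter shares of 66.7 to 70%. GAGAGAG was then in 1 window each time and GGTCACACT in 0. Of 50 alternative relative signals 8 moved, all where signals were divided by the median over all peaks that reach a q-value of 0.01. The cause was not tested. No paired analysis between groups was possible because there is 1 group. The optimal list draws on every replicate, and depth is unknown, so a missing overlap in replicate 4 does not show absence.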

Other observations

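Genes of related proteins, taken from lists chosen with earlier results known, are given here for their own promoter summits. Of 14 genes of further insulator and Motif 1 proteins, 5 had one (35.7%, against 26.1% of protein-coding genes). A summit in the locus was present for 11, against 69.3% of protein-coding genes. The same shares of all protein-coding genes apply to the lists below. The strongest was at Chro, which encodes Chromator, a partner of BEAF-32 at interbands. Its peak ranked 28 and lay beside Ssl1, a TFIIH subunit gene, with relative signals of 8.17, 12.7 and 14.4 in replicates 2, 3 and 4 (11.8 ± 3.23, SD, n = 3). That is within the SD range of the intronic Trl peak. At pzg, which encodes Putzig, the peak ranked 1164 and lay beside CG12974 (1.85 ± 0.718, n = 3).

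Among 11 genes of other BTB-domain transcription factors, 4 had an own promoter summit (36.4%) and all 11 a locus summit. The strongest were at lola, ranked 695 (2.41 ± 0.237, n = 3), and at fru, ranked 3505 (0.901 ± 0.396, n = 3), both of which act in neurons. Cohesin had 1 of 8 (12.5%), at pds5, beside Mppe and ranked 198 (4.74 ± 0.641, n = 3), and 6 of 8 with a locus summit. Of 6 genes of NURF and FACT, 2 had an own promoter summit (33.3%) and 5 a locus summit. Those were dre4, which encodes a FACT subunit, ranked 3388 (0.967 ± 0.276, n = 3), and Iswi, the ATPase of NURF, ranked 4486 (0.627 ± 0.133, n = 3). No list was tested.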
